A study of Mus musculus with 24 samples.

Results

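The receptors through which EGF and FGF act on neural stem cells, and the genes that the downstream ERK pathway switches on to restrain itself, were followed in mouse neural stem cells (NSCs) that carried the MommeD43 allele of Smchd1 or did not. The 10 genes were Egfr, Fgfr1, Fgfr2 and Fgfr3 (receptors), Spry1, Spry2, Spry4 and Dusp6 (feedback inhibitors), and Etv4 and Etv5 (transcription factors of the ETS family). They were taken by symbol from a table of 14922 genes, and each symbol matched 1 row. Levels are in log2 CPM, a read count scaled to the size of its library and put on a log2 scale, as the authors deposited them after correction for batch. The authors' correction also had terms for sex and strain.

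All cells were female NSCs, taken at E14.5 from embryonic cortex and grown as an adherent layer at low passage in medium that contained recombinant EGF and basic FGF, so both ligands were supplied in every group. The FVB wild type group (Smchd1+/+ on FVB/NJ) had 6 libraries of 5 lines, and the FVB MommeD43 group (homozygous for the allele found in a chemical mutagenesis screen, on FVB/NJ) had 5 libraries of 4 lines. The B6GFP groups were on C57BL/6J and carried Smchd1 fused to GFP: B6GFP wild type, labelled Smchd1+/+, had 6 libraries of 4 lines, and B6GFP MommeD43, in which the same change was made by genome editing on the fusion, had 5 libraries of 4 lines. The paper describes both groups with the fusion as homozygous for it, and the mutants among them as homozygous for the allele as well. Strain and GFP fusion differed together, so their effects cannot be told apart. Of the 24 labelled libraries, 2 (FVB MommeD43 replicate 3 and B6GFP MommeD43 replicate 2, both of batch 1) were equal in every gene to the mean of the rest of their group and were left out. Lines carry the replicate numbers of the labels, and the values of a line sequenced in 2 batches were averaged. The names of 7 lines share 3 numbers before a point or letter, also across genotypes: B6GFP wild type replicates 1 and 2 with B6GFP MommeD43 replicate 4, B6GFP wild type replicate 3 with B6GFP MommeD43 replicate 3, and FVB wild type replicate 1 with FVB MommeD43 replicate 4. The labels do not say whether such a number marks an embryo, litter or dam. The p-values of the fit measure the spread between libraries, with those of a line treated as weakly correlated (0.0827). Repeat libraries of a line thus counted as nearly independent. Deviations from the group means correlated at 0.061 to 0.556 in the 4 pairs across genotypes. B6GFP wild type replicates 1 and 2, which share a number within a genotype, gave 0.457. All pairs across genotypes with different replicate numbers, some of those above included, ran from -0.417 to 0.658 in FVB. In B6GFP such pairs ran from -0.53 to 0.556.

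EGF and FGF receptors are tyrosine kinases at the cell surface. Once a ligand is bound they start the RAS to ERK relay, which keeps NSCs dividing in culture. Active ERK raises transcription of Etv4 and Etv5, which belong to the PEA3 group of ETS factors, and of Dusp6 and the Sprouty genes, whose products damp the same relay: DUSP6 removes phosphate from ERK, and Sprouty proteins act between receptor and RAS. RNA levels of these genes are therefore often read as a sign of how strongly the pathway is running, although RNA was the only quantity measured here and no phosphorylation was.

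The cells carried RNA of NSC markers, at levels that differed widely between genes. Over the 17 lines the highest were Vim, which averaged 11.1, and Fabp7, 10.6 log2 CPM. Nes averaged 10.1 and Sox2 7.94, but Prom1 only 4.8 and Hes5 3.21. Hes5 was at 4.29 and 4.58 in the FVB wild type and MommeD43 groups and at 2.1 and 1.61 in those of B6GFP. None of the 7 microglia markers had a row in the table, and the endothelial and mesenchymal lists did not exceed a mean of 0.414 log2 CPM for any gene (Kdr). Astrocyte markers led by Slc1a3 (9.78) and Aldoc (7.86) and oligodendrocyte lineage markers led by Olig1 (9.99) and Olig2 (9.16) were present, while Gfap, named here outside the rule for named genes, averaged -0.382. Among neuronal markers Map2 averaged 9.76 and Tubb3 2.97. Some varied widely between the B6GFP MommeD43 lines, with Dcx at 1.5 ± 2.61 (SD, n = 4) and Tbr1 at 0.779 ± 2.69, while Map2 was at 9.89 ± 0.0619. Relative read depth, taken from the steps between the lowest values, was 0.137 to 0.19 of that of the deepest library in batch 2 (FVB only), 0.526 to 0.893 in batch 1 (both strains) and 0.435 to 1 in batch 3 (B6GFP only). Absolute depth is unknown, and no counting interval can be given. Smchd1 itself averaged 7.27 ± 0.118 log2 CPM (SD, n = 5 lines) in FVB wild type, 7.36 ± 0.0704 (n = 4) in FVB MommeD43, 6.96 ± 0.277 (n = 4) in B6GFP wild type and 7.16 ± 0.193 (n = 4) in B6GFP MommeD43. The allele is a missense change, so the level of its RNA does not check the genotype labels. B6GFP wild type replicate 4 stood apart from the rest of its group in several of the 10 genes, and received the lowest quality weight, 0.101, in the fitted model. B6GFP MommeD43 replicate 2 had the next lowest weight, 0.158. These 2 libraries had the highest relative depths, 1 and 0.994. B6GFP MommeD43 replicate 2 was the lowest of all lines in Egfr (7.96), Spry2 (7.15), Dusp6 (7.53) and Etv4 (7.04).

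On the GRCm38.p6 assembly, in RefSeq positions, Egfr lies at chr11:16752203-16913907 (+), Fgfr1 at chr8:25518759-25575718 (+), Fgfr2 at chr7:130162451-130266808 (-) and Fgfr3 at chr5:33721724-33737068 (+). Of the inhibitors, Spry1 is at chr3:37639947-37644599 (+), Spry2 at chr14:105891947-105896819 (-) and Dusp6 at chr10:99263231-99267489 (+). Etv4 is at chr11:101769747-101785310 (-) and Etv5 at chr16:22381313-22439570 (-). Exons of 4 of the 10 genes overlap exons of another annotated gene: Fgfr2 shares 314 bases with Ctbp2 on the same strand, and Fgfr1, Fgfr3 and Spry1 share 164, 437 and 710 bases with Gm16159, G630022F23Rik and Gm42922 on the opposite strand. Whether reads were counted by strand is not given in the sources used here, so reads from those bases could have been given to either gene.

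The bases before the transcription start are shown for Egfr, the only member whose window held the motif searched, and for Fgfr2 and Dusp6. The levels of Fgfr2 and Dusp6 correlated negatively over the 17 lines (r = -0.727), but hardly within batch 1 (r = -0.053). Each run holds the 250 bases upstream of the RefSeq start, read on the strand of the gene (GRCm38.p6; Egfr chr11:16751953-16752202, Fgfr2 chr7:130266809-130267058, Dusp6 chr10:99262981-99263230). Capitals mark the motif CCGGAA, a core sequence bound by ETS factors, searched on both strands (TTCCGG on the other).
Egfr: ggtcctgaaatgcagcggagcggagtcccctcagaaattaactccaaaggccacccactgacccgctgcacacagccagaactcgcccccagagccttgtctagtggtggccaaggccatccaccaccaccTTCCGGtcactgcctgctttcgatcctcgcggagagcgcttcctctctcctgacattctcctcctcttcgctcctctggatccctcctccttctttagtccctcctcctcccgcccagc
Fgfr2: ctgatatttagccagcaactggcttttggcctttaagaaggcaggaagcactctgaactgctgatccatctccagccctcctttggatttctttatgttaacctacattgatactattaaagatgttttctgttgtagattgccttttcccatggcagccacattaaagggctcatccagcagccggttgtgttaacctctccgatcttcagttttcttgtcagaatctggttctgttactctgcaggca
Dusp6: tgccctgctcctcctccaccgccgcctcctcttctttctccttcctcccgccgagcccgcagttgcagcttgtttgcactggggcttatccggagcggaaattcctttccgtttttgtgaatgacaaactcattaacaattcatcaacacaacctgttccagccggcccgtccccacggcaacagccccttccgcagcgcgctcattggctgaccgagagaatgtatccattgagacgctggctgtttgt

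RefSeq start windows were found for 7 of the 10 genes, in 9 windows because Fgfr3 and Etv5 have a second start. The motif was in 1 of these 9 windows, that of Egfr, with 113 bases between it and the start, and in 3952 of 32851 windows of the same length over all genes (12%). The windows differed in composition. That of Fgfr2 held 2 CG pairs and 44% G and C, and that of Dusp6 held 16 CG pairs and 56.4%, against a median of 6 pairs and 52.4% over all windows. Those of the other members held 11 to 27 CG pairs. A match is a description of letters and says nothing about binding in these cells.

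To compare levels between genes, each mean was divided by the length of the longest principal transcript (GENCODE M21), giving log2 CPM per kilobase over the 17 lines. The genes that ERK switches on were the more abundant transcripts: Etv5 (6.73), Dusp6 (6.68) and Spry2 (6.64) led, followed by Etv4 (5.94), Spry4 (5.77) and Spry1 (5.65). The receptors came after them, Fgfr1 at 5.24, Egfr at 4.95, Fgfr3 at 4.59 and Fgfr2 last at 2.1. Etv5, Dusp6 and Spry2 lay closer together than the SD between lines of any of them, which was 0.193 for Etv5, 0.303 for Dusp6 and 0.228 for Spry2. Spry4 was nearer to Etv4 and to Spry1 than its own SD of 0.285. Egfr and Fgfr3 were nearer to each other than the SD of Fgfr3 (0.376). Whether such neighbours differed within lines was not tested. With the union of all exons as the length, Fgfr2 fell to 1.48 and stayed last, and the order of the others was kept.

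The spread between lines differed widely among the 10 genes. Etv4 was the steadiest, with an SD between lines within groups of 0.0528 log2 CPM, lower than in all but 0.717% of the 6415 genes with a mean of at least 5 log2 CPM. Fgfr2 had an SD of 0.783, above 99.8% of those genes, although its own mean of 3.84 lay under that limit. Without B6GFP wild type replicate 4 its SD was 0.417, above 98.2%. Fgfr3 (SD 0.376, above 95.6%), Dusp6 (0.303, above 92.5%) and Spry4 (0.285, above 91%) also varied more than most genes, while Egfr (0.135) and Fgfr1 (0.137) were close to the median of 0.145. Technical error can be judged only roughly from repeat libraries of 5 lines that were sequenced in 2 batches. The authors' batch correction itself drew on technical replicates, so differences between repeats are no independent measure. The SD between repeats is also that of single libraries, while the SD between lines includes lines averaged over 2 libraries. The SD between such repeats was 0.471 for Fgfr2, between the values of its SD between lines with and without B6GFP wild type replicate 4. For Fgfr3 it was 0.183, under the 0.376 between lines, and it was 0.143 against 0.135 for Egfr, 0.162 against 0.137 for Fgfr1 and 0.103 against 0.0528 for Etv4. The repeat SD rested in part on single lines: without B6GFP wild type replicate 3 it was 0.306 for Fgfr2 and 0.0865 for Fgfr1, and without B6GFP MommeD43 replicate 3 it was 0.0582 for Etv4 and 0.115 for Fgfr3. The largest difference between repeats was in Fgfr2 of B6GFP wild type replicate 3, at 1.21 log2 CPM.

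**Figure D1:**
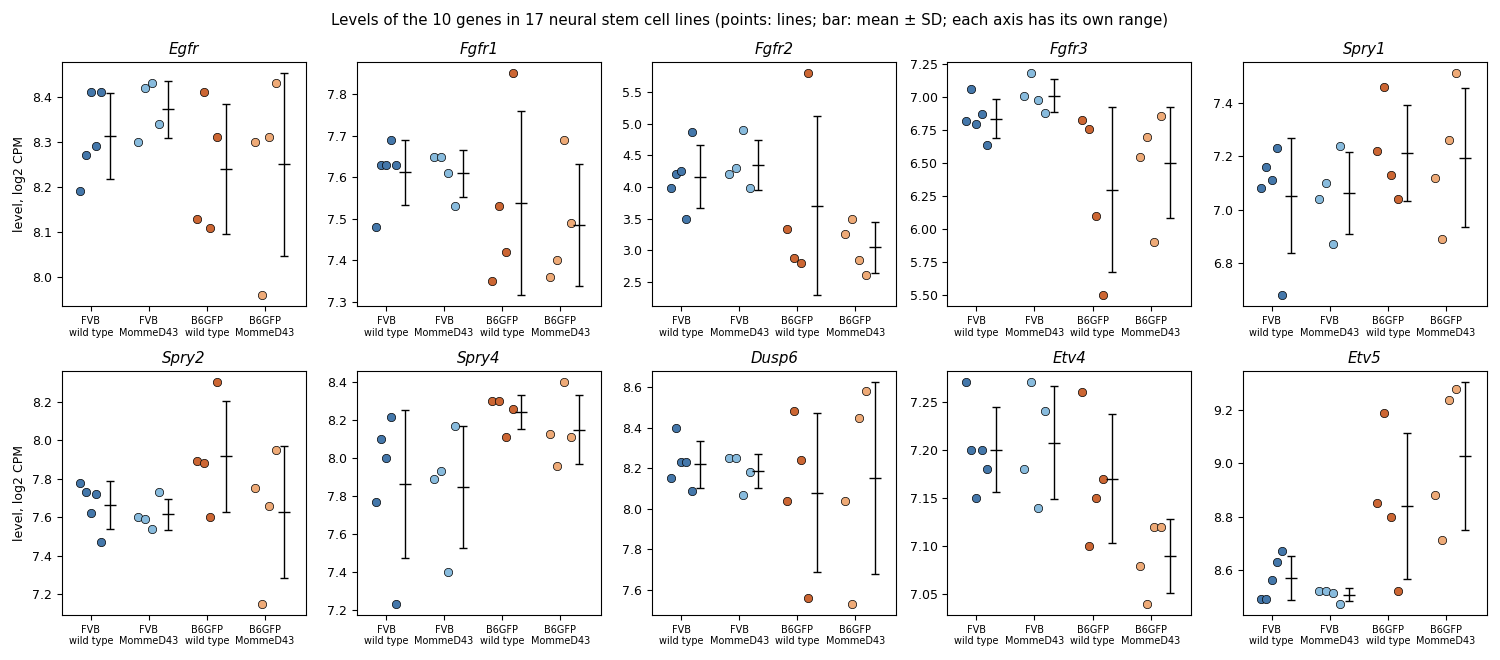
Level of each of the 10 genes in log2 CPM (vertical axis, with its own range in each panel) in the 4 groups (horizontal axis); points are the 17 lines, and the bar beside them is the mean ± SD. B6GFP wild type replicate 4 is the single high point in Fgfr2 (5.80) and the lowest in Fgfr3 (5.50), and 7 of the 8 B6GFP lines lie above every FVB line in Etv5.

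The first question was whether the MommeD43 allele altered these genes. In FVB cells none of the 10 genes passed the threshold of adjusted p 0.05, where 0.0737% of all genes (11 of 14922) did. In B6GFP cells none passed either, and 0% of all genes did. By unadjusted p, 1 member in FVB (Spry2) and 0 in B6GFP fell under 0.05, against 6.86% and 2.14% over the whole table. Fitted differences ran from -0.132 (Spry4) to 0.193 (Fgfr3) on the log2 scale in FVB and from -0.258 (Fgfr3) to 0.0478 (Etv5) in B6GFP. The values of the lines of the mutant and control groups overlapped in all 10 genes in both strains, and 1.05% and 1.23% of all genes had groups without overlap. These are bulk samples, in which fewer cells of a type and less RNA per cell cannot be told apart.

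Among the receptors, Egfr stood at 8.19, 8.27, 8.41, 8.29 and 8.41 log2 CPM in the FVB wild type lines and at 8.30, 8.42, 8.43 and 8.34 in FVB MommeD43. In B6GFP the controls were at 8.13, 8.41, 8.11 and 8.31 and the mutants at 8.30, 7.96, 8.31 and 8.43. The lowest and the highest of these B6GFP lines were both mutants, and the fitted differences were 0.035 (SE 0.0536) in FVB and 0.0433 (SE 0.0696) in B6GFP. Fgfr1, the main FGF receptor of cortical progenitors, differed by -0.00666 (SE 0.0605) and 0.0216 (SE 0.0787). Fgfr3, a receptor known from radial glia and astrocytes, was at 6.82, 7.06, 6.80, 6.87 and 6.64 in FVB wild type and at 7.01, 7.18, 6.98 and 6.88 in FVB MommeD43. All 4 mutant lines lay above the mean of the controls, 6.84, and 3 of them below the highest control. The difference was 0.193 (SE 0.134, adjusted p = 0.881). In B6GFP it was -0.258 (SE 0.174, adjusted p = 1). It was -0.754 with adjusted p = 0.0348 when B6GFP MommeD43 replicate 1 was left out, and was 0.105, of opposite sign, when no quality weights were used.

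The difference of the allele's effect between strains was tested directly. None of the 10 genes passed, nor did any other gene (0%). By unadjusted p, 459 genes (3.08%) and no member fell under 0.05. Fgfr3 had the smallest p of the 10, with a difference of -0.451 (B6GFP minus FVB, SE 0.22, adjusted p = 1). The other members lay between -0.187 and 0.094.

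Of the feedback inhibitors, Spry2 was lower in the mutants of both strains in the fit, by -0.128 (SE 0.0604, adjusted p = 0.711) in FVB and -0.105 (SE 0.0786, adjusted p = 1) in B6GFP. Its values were 7.78, 7.73, 7.62, 7.72 and 7.47 in FVB wild type against 7.60, 7.59, 7.54 and 7.73 in FVB MommeD43, and 7.89, 7.88, 7.60 and 8.30 in B6GFP wild type against 7.75, 7.15, 7.66 and 7.95 in B6GFP MommeD43. In both strains 3 of 4 mutant lines lay below the mean of their controls and the ranges overlapped. Averaged over the strains Spry2 differed by -0.117 (SE 0.0495, adjusted p = 0.999). Again none of the 10 genes passed, where 0.0335% of all genes did, and Spry2 alone was under 0.05 unadjusted, against 4.62% of all genes. Spry1 (-0.065 and -0.108), Spry4 (-0.132 and -0.113) and Dusp6 (-0.00951 and -0.0419) were also below 0 in both strains without passing, with adjusted p from 0.884 to 1.

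The ETS factors showed the same lack of calls. Etv4 differed by 0.0237 (SE 0.0385) in FVB and by -0.0957 (SE 0.0501, adjusted p = 1) in B6GFP, where all 4 mutant lines lay below the mean of the controls, 7.17. Etv5 differed by -0.0461 (SE 0.0635) and 0.0478 (SE 0.0826).

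**Figure D2:**
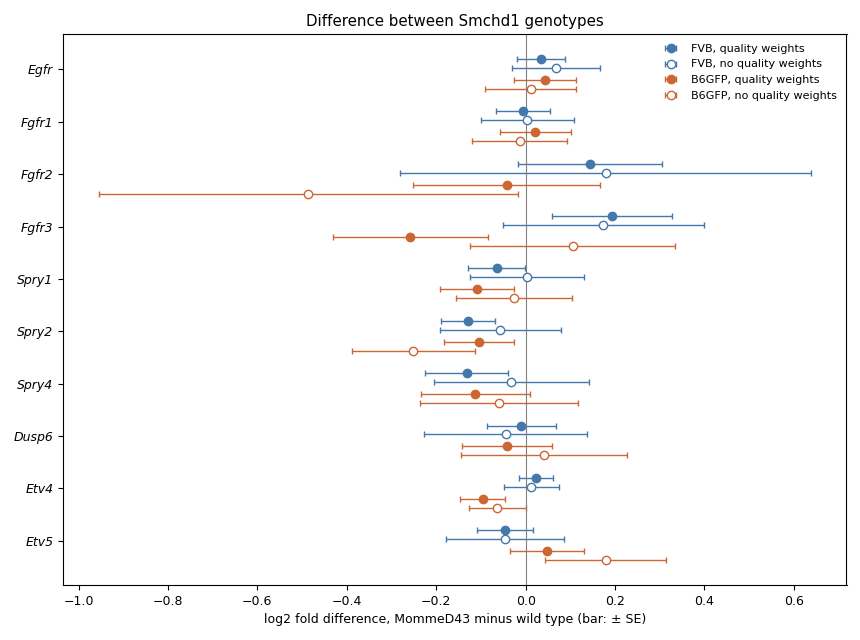
Fitted log2 fold difference of each gene, MommeD43 minus wild type (horizontal axis; bars are ± 1 SE), in FVB and B6GFP cells, from the model with quality weights (filled) and without (open). No difference passed the threshold, and that of Fgfr3 in B6GFP lay on opposite sides of 0 in the weighted (-0.258) and unweighted (0.105) models.

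The genes around these 10 in the pathway were read from lists that held ligands of the EGF and FGF families, other receptors and co-receptors, the RAS to ERK relay, other inhibitors and other ERK target genes. Of these, 74 genes had a row in the table, and none passed for MommeD43 in either strain. The number under an unadjusted 0.05 in FVB was 2 of 10 ligands, 1 of 8 other receptors, 0 of 21 relay genes, 1 of 17 other inhibitors and 1 of 18 other targets. In B6GFP it was 1 ligand and 0 in the other lists. In FVB that makes 5 of 74, close to the 6.86% over all genes, and in B6GFP 1 of 74, where the share over all genes was 2.14%. The medians of the lists lay between -0.0553 and 0.117 in FVB and between -0.0954 and 0.145 in B6GFP, where the median of all genes was 0.0131 and 0.011.

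The strains differed more. In wild type cells 4 of the 10 genes passed between B6GFP and FVB, Fgfr1 and Fgfr2 lower and Spry4 and Etv5 higher in B6GFP. That share is close to the 41.1% of all genes that passed (17.9% higher and 23.2% lower), so the count is no feature of these genes. In MommeD43 cells 4 of 10 passed as well, Fgfr2 and Fgfr3 lower and Spry4 and Etv5 higher, against 34.4% of all genes (14.7% higher and 19.6% lower). Fgfr2, Spry4 and Etv5 were thus called in the same direction in both comparisons, which contrast different lines within 1 fit. When each library was centred on its median, the split of all calls moved from 2676 higher and 3455 lower to 3608 higher and 2544 lower in wild type, and from 2199 and 2927 to 3013 and 2265 in MommeD43, with 5 members passing in each. Without quality weights no member passed in either comparison, and 1259 and 1017 genes passed in all.

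Fgfr2, a receptor of FGF ligands with isoforms of different ligand preference, had the largest difference. Its level was 3.98, 4.21, 4.26, 3.50 and 4.87 log2 CPM in the FVB wild type lines and 3.34, 2.88, 2.80 and 5.80 in the B6GFP wild type lines. Of the B6GFP lines 3 lay below every FVB line of either genotype and the fourth, replicate 4, lay above all of them. In MommeD43 cells it was 4.21, 4.30, 4.90 and 3.99 in FVB against 3.25, 3.49, 2.84 and 2.60 in B6GFP, with no overlap. The fitted difference was -0.978 (SE 0.182, adjusted p = 0.000226) in wild type, a fold of 0.508, and -1.16 (SE 0.214, adjusted p = 0.000277) in MommeD43, a fold of 0.446. The plain wild type means were 4.16 ± 0.495 (SD, n = 5) in FVB and 3.7 ± 1.42 (n = 4) in B6GFP, and are closer together than the fit because the model gave replicate 4 little weight. Without weights the fit gave -0.583 (adjusted p = 0.596), and without weights and without that line -0.988 (adjusted p = 0.0208). In MommeD43 cells these values were -1.25 (adjusted p = 0.255) and -0.966 (adjusted p = 0.0542). Within batch 1, which held both strains, the difference was -1 (SE 0.11, adjusted p = 0.000386) in wild type and -1.1 (SE 0.141, adjusted p = 0.0014) in MommeD43. In each alternative that left out a line, Fgfr2 passed in 17 of 17 for both comparisons.

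Fgfr3 was lower in B6GFP in the mutant cells, at 6.55, 6.70, 5.90 and 6.86 log2 CPM against the FVB values given above, with no overlap and a fitted difference of -0.786 (SE 0.179, adjusted p = 0.00187). It was -1.34 without B6GFP MommeD43 replicate 1 and -0.528 without replicate 3, and passed in both. Without quality weights it was -0.613 (adjusted p = 0.254). In wild type the B6GFP lines were at 6.83, 6.76, 6.10 and 5.50, all below the FVB mean, and the difference of -0.336 (SE 0.152, adjusted p = 0.0836) did not pass. It passed when any of 4 lines was left out, with adjusted p = 0.0252 without B6GFP wild type replicate 1, 0.0499 without B6GFP wild type replicate 2, 0.0388 without B6GFP MommeD43 replicate 1 and 0.0379 without B6GFP MommeD43 replicate 3. It was smaller without B6GFP wild type replicate 3 (-0.216, adjusted p = 0.208), without FVB wild type replicate 2 (-0.25, adjusted p = 0.353) and with line means (-0.225, adjusted p = 0.266). Whether Fgfr3 differed more between strains in mutant than in wild type cells is the strain difference of the allele's effect given above, and that did not pass. Within batch 1 it was -0.282 (adjusted p = 0.318) in wild type and -0.967 (adjusted p = 0.0311) in MommeD43. Markers of astrocytes moved the same way: 7 of 7 were lower in B6GFP in both comparisons, with medians of -1.52 and -1.44. Their summed level was 10.5 to 10.9 log2 CPM in FVB wild type and 10.6 to 10.8 in FVB MommeD43, against 9.92 to 10.4 in B6GFP wild type and 9.77 to 10 in B6GFP MommeD43. Gfap, Aqp4 and S100b, defining genes of mature astrocytes of which the first 2 were chosen after their values were seen, averaged -0.382, -0.561 and -0.18 log2 CPM over all lines. The part of these markers in the receptor results was not tested.

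Fgfr1 was lower in B6GFP wild type by -0.174 (SE 0.0686, adjusted p = 0.047), with 7.35, 7.53, 7.42 and 7.85 against 7.48, 7.63, 7.63, 7.69 and 7.63 log2 CPM in FVB wild type. The highest of all these lines was B6GFP wild type replicate 4, and the call was close to the threshold. It was lost when FVB wild type replicate 2, 3 or 4 was left out (adjusted p = 0.227, 0.0759 and 0.0738), likewise FVB MommeD43 replicate 1, 2, 4 or 5 (0.0582, 0.0629, 0.0594 and 0.0542), B6GFP wild type replicate 1 or 2 (0.31 and 0.204) or B6GFP MommeD43 replicate 2 (0.059). The value itself was -0.101 without B6GFP wild type replicate 1, -0.103 with each library centred on its median (adjusted p = 0.213) and -0.0735 without quality weights (adjusted p = 0.797). The call was also lost without the mean-variance trend (adjusted p = 0.0682) and with lines that share a number as 1 block (adjusted p = 0.0509), where 3 of the 10 genes passed in wild type. Within batch 1 the difference was -0.18 (adjusted p = 0.178). In MommeD43 cells it was -0.146 (adjusted p = 0.169). Egfr was lower by -0.123 (adjusted p = 0.113) and -0.114 (adjusted p = 0.227) and passed in neither.

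Spry4, at chr18:38586247-38601347 (-), was higher in B6GFP. Its level was 7.77, 8.10, 8, 8.22 and 7.23 log2 CPM in FVB wild type against 8.30, 8.30, 8.11 and 8.26 in B6GFP wild type, and 7.89, 7.93, 7.40 and 8.17 in FVB MommeD43 against 8.13, 7.96, 8.40 and 8.11 in B6GFP MommeD43. All 8 B6GFP lines lay above the FVB mean of their genotype, though the ranges overlapped in both. The fitted differences were 0.315 (SE 0.106, adjusted p = 0.0217) and 0.334 (SE 0.125, adjusted p = 0.0427), folds of 1.24 and 1.26. Within batch 1 they were 0.302 (adjusted p = 0.00821) and 0.315 (adjusted p = 0.0258). In wild type the call was lost without B6GFP wild type replicate 1 (adjusted p = 0.0681) or 2 (0.214). In MommeD43 it was lost without FVB wild type replicate 3 or 4 (0.0637 and 0.061), FVB MommeD43 replicate 2 (0.0639) or B6GFP wild type replicate 1 or 2 (0.0568 and 0.0569). Without quality weights the adjusted p was 0.332 and 0.475, with line means it was 0.0665 and 0.0668, and without the trend the MommeD43 call was lost (0.0644). Spry1 (0.177 and 0.134) and Spry2 (0.138 and 0.161) were above 0 in both comparisons without passing, with adjusted p of 0.0552 and 0.233 for Spry1 and 0.113 and 0.128 for Spry2. Spry1 in wild type passed in 10 of 30 alternatives, among them batch 1 only (adjusted p = 0.0151), and had adjusted p = 0.564 without quality weights. Dusp6 differed by -0.0697 and -0.102 and did not pass.

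Etv5 was higher in B6GFP cells. Its level was 8.49, 8.49, 8.56, 8.63 and 8.67 log2 CPM in FVB wild type and 8.85, 9.19, 8.80 and 8.52 in B6GFP wild type, where only replicate 4 fell within the FVB range. In MommeD43 it was 8.52, 8.52, 8.51 and 8.47 in FVB against 8.88, 8.71, 9.24 and 9.28 in B6GFP, with no overlap. The SD between lines was 0.0229 in the FVB mutants and 0.275 in the B6GFP mutants. The differences were 0.354 (SE 0.072, adjusted p = 0.000528) and 0.448 (SE 0.0846, adjusted p = 0.000363), folds of 1.28 and 1.36. They passed in 17 of 17 alternatives that left out a line. Within batch 1, on which the strain differences mainly rest, they were 0.349 (adjusted p = 0.00405) and 0.502 (adjusted p = 0.00362). Without quality weights they were 0.295 (adjusted p = 0.28) and 0.521 (adjusted p = 0.0749), and without weights and B6GFP wild type replicate 4 they were 0.367 (adjusted p = 0.0858) and 0.49 (adjusted p = 0.0494). Etv4, the close relative of Etv5, did not share the change. It differed by -0.0131 (SE 0.0436, adjusted p = 0.843) in wild type and by -0.132 (SE 0.0513, adjusted p = 0.0506) in MommeD43, where the B6GFP lines at 7.08, 7.04, 7.12 and 7.12 lay below all FVB lines at 7.18, 7.27, 7.14 and 7.24. The MommeD43 difference of Etv4 passed in 13 of 30 alternatives, such as line means (adjusted p = 0.0214) and without B6GFP MommeD43 replicate 1 (-0.211, adjusted p = 0.00135). It was -0.0696 with median centring (adjusted p = 0.355). Groups without overlap were seen for 4 of the 10 genes in MommeD43 (Fgfr2, Fgfr3, Etv4 and Etv5) and for 0 in wild type, against 21.3% and 15.9% of all genes.

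**Figure D3:**
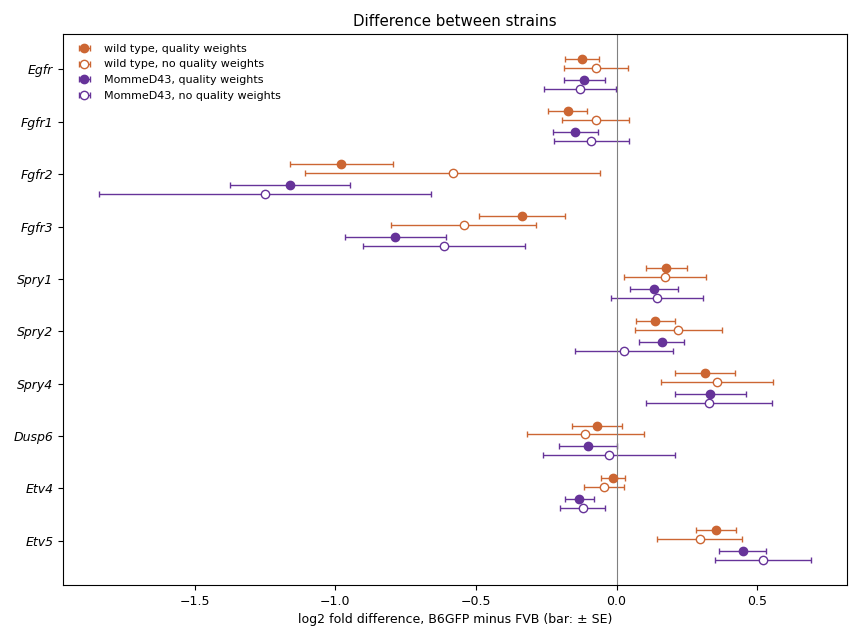
Fitted log2 fold difference of each gene, B6GFP minus FVB (horizontal axis; bars are ± 1 SE), in wild type and MommeD43 cells, from the model with quality weights (filled) and without (open). Fgfr2 lies farthest from 0 on the low side (-0.978 and -1.16 with weights) and Etv5 on the high side (0.354 and 0.448), and the bars widen when the weights are left out.

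Genes of the surrounding pathway were called between strains in both directions. Over all genes 41.1% were called in wild type and 34.4% in MommeD43, and the counts of the lists are read against those shares. Of the 10 measured ligands 3 were higher and 1 lower in B6GFP wild type, and 1 higher and 1 lower in B6GFP MommeD43, which is no more than the share of all genes. Fgf1, an FGF ligand that binds all FGF receptors, was higher by 2.31 (SE 0.134, adjusted p = 2.57e-11) in wild type and 2.15 (SE 0.158, adjusted p = 1.69e-09) in MommeD43. Its mean rose from 3.63 ± 0.314 log2 CPM in FVB wild type to 5.93 ± 0.263 in B6GFP wild type. Areg, a ligand of EGFR, was higher in wild type by 1.22 (adjusted p = 0.00385), and Nrg1, a ligand of the ERBB receptors, was lower by -1.19 (adjusted p = 2.06e-05) and -1.08 (adjusted p = 0.000439). Of 8 other receptors and co-receptors 3 were higher and 2 lower in both comparisons. The heparan sulfate proteoglycans Sdc3 and Sdc1 were higher by 0.528 and 0.462 in wild type, and Erbb2 was lower by -0.727 (adjusted p = 0.000124).

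Of 21 relay genes 4 were higher and 1 lower in wild type, and 3 higher and 2 lower in MommeD43, fewer than the shares of all genes. Rps6ka1, a kinase that ERK activates, was higher by 1.28 (adjusted p = 7.19e-06) and 1.2 (adjusted p = 0.000143). Shc1, an adaptor, and Sos2, an exchange factor for RAS, were higher by 0.31 and 0.228 in wild type. Of 17 other inhibitors 6 were higher and 1 lower in both comparisons, in all 7 of 17. Lrig1, which lowers ERBB receptors, was higher by 0.46 (adjusted p = 1.82e-06) and 0.499 (adjusted p = 7.83e-06), Spred2, a relative of the Sprouty genes, by 0.385 and 0.463, and the phosphatase gene Dusp4 by 0.817 and 0.714. Of 18 other ERK targets 9 were higher and 1 lower in wild type (median 0.413, all genes -0.0215), and 6 were higher and 0 lower in MommeD43 (median 0.279, all genes -0.0276). Elk3 was higher by 1.11 and 1.29, Ets1 by 0.833 and 0.968 and Ccnd1, the cyclin of the early cell cycle, by 0.657 and 0.641, with adjusted p between 1.01e-09 and 1.74e-05 for these 3 genes.

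Lines also differed within groups, and the design allowed the 10 genes to be compared over 17 lines after each value was set relative to its group mean. Of 45 pairs, 4 passed a permutation test within groups (100000 resamples, two-sided, Benjamini-Hochberg over the 45 pairs) for Pearson's r, each with adjusted p = 0.0334. None of the 4 passed for Spearman's rho. Spry1 and Dusp6 went together (r = 0.758, permutation p = 0.00169; rho = 0.760, permutation p = 0.00342, adjusted p = 0.064), as did Spry1 and Spry4 (r = 0.733, permutation p = 0.00239; rho = 0.733, permutation p = 0.00144, adjusted p = 0.064). Fgfr2 went against Dusp6 (r = -0.727, permutation p = 0.00109; rho = -0.706, permutation p = 0.00427, adjusted p = 0.064) and against Spry1 (r = -0.638, permutation p = 0.00297; rho = -0.664, permutation p = 0.00917, adjusted p = 0.103). The largest r of all pairs, 0.868 for Dusp6 and Etv5, did not pass (permutation p = 0.0106, adjusted p = 0.0956; rho = 0.588).

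Without the 2 lines farthest from the median of the first gene of the pair, r was 0.731 for Spry1 and Dusp6, 0.563 for Spry1 and Spry4, -0.630 for Fgfr2 and Dusp6 and -0.636 for Fgfr2 and Spry1. Strains and batches did not contribute alike. Over the 9 FVB lines r was 0.978 for Spry1 and Spry4, and over the 8 B6GFP lines it was 0.445. Over the 10 libraries of batch 1, Spry1 and Dusp6 gave 0.800 and Spry1 and Spry4 0.579, but Fgfr2 and Dusp6 gave -0.053 and Fgfr2 and Spry1 -0.391. In batches 2 and 3, of 6 libraries each, Fgfr2 and Dusp6 gave -0.442 and -0.762, and Fgfr2 and Spry1 -0.943 and -0.406. The relation of Fgfr2 with Dusp6 thus did not hold in batch 1. The labels give only a number for each batch, and do not say what its libraries shared. Relative depth ran from 0.526 to 0.893 within batch 1, from 0.137 to 0.19 within batch 2 and from 0.435 to 1 within batch 3. The part of batch and depth in these relations was not tested.

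**Figure D4:**
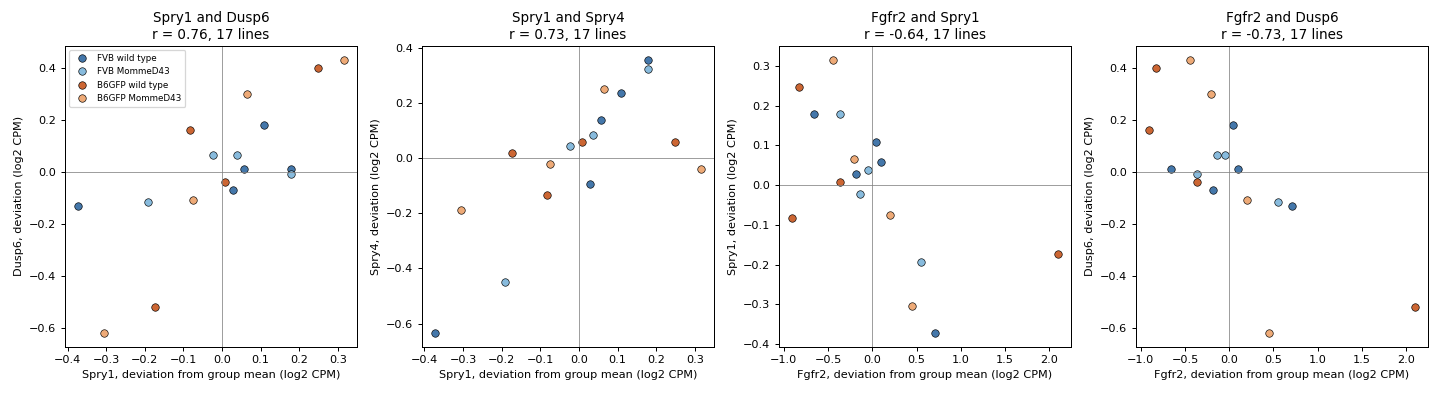
Deviation of each of the 17 lines from its group mean in log2 CPM for the 4 pairs of genes that passed for Pearson's r; each point is a line, coloured by group, and each axis is 1 gene. Spry1 and Dusp6 rise together (r = 0.758), and the point far to the right in both Fgfr2 panels is B6GFP wild type replicate 4.

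The genes whose values followed each member most closely over the 17 lines were looked up among 11969 genes with a mean of at least 1 log2 CPM, by Pearson's r of deviations from the group means. The nearest genes were Bche (0.920) and Phkb (0.906) to Egfr, Efemp2 and Rrbp1 (0.882 each) to Fgfr1, Brox (0.968) and Zfp142 (0.967) to Fgfr2, and Plin3 (0.922) and Bex4 (0.911) to Fgfr3. Copz2 (0.967) and Tmem179b (0.936) were nearest to Spry1, Scpep1 (0.973) and Junb (0.959) to Spry2, Klf12 (0.956) and Adgre5 (0.940) to Spry4, and Hgsnat (0.965) and Chst7 (0.948) to Dusp6. Etv4 had the weakest nearest genes, Dusp23 (0.815) and Atg9b (0.724). Etv5 was nearest to Septin9 (0.905, listed with a symbol that had been turned into a date and identified by Entrez number 53860) and Nek9 (0.897). None of these nearest genes was another member. Values picked as the highest of many are high by construction and are given as a description. Without B6GFP wild type replicate 4 the SD of Fgfr2 fell from 0.783 to 0.417. How far its 2 values rest on that line was not tested.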

How the data were processed

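RNA of 24 NSC libraries (100 ng of RNA each, poly(A) selected) was sequenced in 3 batches. The authors trimmed reads with Trim Galore 0.4.4, mapped them with HISAT2 2.0.5 to GRCm38.p6, and used limma 3.40.6 with voom, quality weights and a correction for batch, sex and strain that also drew on libraries not used here. The counting of reads by strand is not given in the sources used here. The deposited values are log2 CPM for 14922 genes, made by the authors and already corrected for batch, and not counts, so count models were not used.

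Here limma 3.58.1 (R 4.3.3) was fitted to the 22 libraries that are not group means, with terms for group and batch. Libraries were weighted by quality (0.1 to 4.9), a mean-variance trend was used, and libraries of a line were treated as correlated (0.0827). The fit had 16 residual and 4.86 prior degrees of freedom. All 6 comparisons were two-sided and adjusted by Benjamini-Hochberg over 14922 genes, with a threshold of 0.05. The standard errors are those of the fit and take no account of the authors' earlier correction. Strain was among its terms, and how far it altered the strain differences is not known. Group means and SDs are over lines. Fitted differences weight libraries unequally and can differ from differences of group means. The script was tested on simulated data. The genes named are the 10 members, Smchd1, up to 3 passing genes with the smallest p in each other list, the 2 highest genes of each marker list and the 2 nearest genes of each member, with Gfap and Aqp4 added after their values were seen. The members, lists and tests were chosen with earlier results of these data known. Depth is known only relative to the deepest library. Python with numpy, pandas and scipy made the other tables, and RefSeq tables of GRCm38.p6 gave positions and start sequences. The alternatives covered weights, trend, line block, batch, scaling, filter, pseudocount, columns and left-out lines.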

Additional observations from a re-analysis of the deposited data

Results flagged for a closer look

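Among the 40 combinations of gene and group, 3 held a line farther from the rest than Dixon's limit allows, and chance alone gives about 1 in 20. Fgfr1 in FVB wild type replicate 1 was 7.48 log2 CPM, with the nearest line at 7.63 (gap over range 0.712, limit 0.71, 5 lines). Spry1 in FVB wild type replicate 5 was 6.68, with the nearest line at 7.08 (0.725). Etv5 in FVB MommeD43 replicate 5 was 8.47, with the nearest line at 8.51 (0.833, limit 0.829, 4 lines). No difference of the MommeD43 effect between strains passed its test in the 10 genes.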

How the results depend on the processing

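Over 42 fitted differences of the 10 genes and 32 settings, 1141 of 1280 values kept direction and side of the threshold, 38 lost the call, 43 gained it and 58 changed sign. The cause of these changes was not tested unless the setting itself names it.

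For MommeD43 in FVB, 11 genes passed. The count was 1 without quality weights, also without B6GFP wild type replicate 4, 7 without the trend, 19 with libraries centred on their median, 3 with log2(CPM + 1), 510 with all 24 columns, and 0 within batch 1 and within batch 2. For B6GFP, with 0 genes, it was 2 without the line block, 1 with line means, 480 with all 24 columns and 2 with lines sharing a number as 1 block. Averaged over strains, with 5 genes, it was 1 without weights, also without replicate 4, 3 without the trend, 1010 with all 24 columns and 0 in batch 1. The difference between strains went from 0 to 1 without the batch term and to 61 with all 24 columns. The strain counts went from 6131 to 1259 without weights, or 1878 also without replicate 4, in wild type. In MommeD43 they went from 5126 to 1017, 1431 and, with all 24 columns, 13991. The added columns equal group means, which lowers the spread; with them Spry2 passed in B6GFP (adjusted p = 0.0464) and on average (0.0246).

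Leaving out a line gave 3 (without FVB wild type replicate 2) to 981 genes (without FVB MommeD43 replicate 2) in FVB, 0 to 139 (without B6GFP MommeD43 replicate 3) in B6GFP, 2 to 91 on average, 0 to 12 for the difference, 4014 to 6400 for strain in wild type and 4644 to 8179 in MommeD43. Of the member values that changed sign, the ranges in FVB were -0.0465 to 0.0652 (Egfr), -0.0206 to 0.0139 (Fgfr1), -5.19e-05 to 0.22 (Fgfr2), -0.0194 to 0.0284 (Dusp6) and -0.0243 to 0.0466 (Etv4). In B6GFP they were -0.00517 to 0.126 (Egfr), -0.104 to 0.263 (Fgfr1), -0.233 to 0.0185 (Fgfr2), -0.138 to 0.165 (Dusp6) and -0.0473 to 0.26 (Etv5). Between strains they were -0.129 to 0.00672 (Dusp6) and -0.0551 to 0.0133 (Etv4) in wild type, and -0.283 to 0.115 (Fgfr1) and -0.199 to 0.0987 (Dusp6) in MommeD43.

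Other settings turned these signs in FVB. Without weights Fgfr1 was 0.00312 and Spry1 0.00262, and also without replicate 4 they were 0.00377 and 0.00165. Fgfr1 was 0.0149 with line means. Within batch 1 Egfr was -0.0118, Fgfr1 0.0106 and Dusp6 0.0195, and within batch 2 Spry1 was 0.0989, Spry2 0.035 and Spry4 0.0812. In B6GFP, without weights Fgfr1 was -0.0136, Fgfr3 0.105 and Dusp6 0.0403, and also without replicate 4 Fgfr2 was 0.195. Fgfr1 was -0.00319 with line means, and Dusp6 0.0572 without the batch term, 0.0277 with all 24 columns and 0.0421 in batch 1. Within batch 3 Egfr was -0.0543, Spry4 0.238 and Etv4 0.122. Between strains Etv4 in wild type was 0.00966 with line means, 0.0528 with centring and 0.00766 in batch 1, and Dusp6 in MommeD43 was 0.0155 without the batch term and 0.00874 with all 24 columns.

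Correlations of same-numbered lines across genotypes ran from -0.653 to 0.244 in FVB and from -0.378 to 0.061 in B6GFP. Those of lines with other numbers ran from -0.417 to 0.658 and from -0.53 to 0.556. With so few lines in a group, these ranges cannot settle whether replicate numbers pair the lines. With the replicate number as a block, 137 genes passed in FVB, 3 in B6GFP and 39 on average, while no member passed for MommeD43, and 6 and 4 members passed between strains. Under that block Fgfr1 was 0.0444, Dusp6 0.0113 and Etv4 -0.00332 in FVB, and Spry4 0.00364 and Dusp6 0.0789 in B6GFP. The fit without weights and without replicate 4, and the spreads with single lines left out, were chosen after seeing the data. With each line left out, r ran from 0.692 to 0.815 for Spry1 and Dusp6, 0.616 to 0.836 for Spry1 and Spry4, -0.728 to -0.598 for Fgfr2 and Spry1 and -0.789 to -0.629 for Fgfr2 and Dusp6. Depth is known only relative to the deepest library, so its limit on low genes could not be given.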
